A study of Mus musculus with 6 samples.

Results

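Whisker barrels are the clusters of layer 4 neurons and thalamic axons that map each whisker onto the primary somatosensory cortex. The values below are for 6 genes whose loss disrupts barrels or the turning of dendrites toward thalamic axons: Btbd3, Adcy1, Prkar2b, Plcb1, Maoa and Slc6a4. Every probe that the arrays list under one of these names was taken, which gave 10 of the 55681 probes that are not controls. Prkar2b and Plcb1 have 3 probes each, and the other 4 genes have 1 probe each. Total RNA of dissected primary somatosensory cortex of C57BL/6 mice at postnatal day 7 was measured on 6 single-colour arrays. The 3 control samples carry Lhx2f/f, which are Lhx2 alleles flanked by recombination sites, without Cre, and their titles call them WT. The 3 samples labelled cKO carry the same Lhx2f/f alleles and Nex-Cre, a recombinase expressed from the Nex (Neurod6) gene in young excitatory neurons of the cortex. Both groups share the floxed alleles, and Nex-Cre is not expected to act in glia, interneurons, thalamic neurons or raphe neurons. No labelled control carries Nex-Cre alone. Nothing in the labels ties the replicates to separate mice, and the p-values therefore measure the spread between samples, which may be technical. Y-linked signal, given below, differed among the control samples, so these are not all from the same mouse.

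The genes act at successive points of thalamocortical signalling. Slc6a4 is the serotonin transporter, which takes up serotonin and is made for a short time by thalamic neurons that do not make serotonin themselves, and Maoa is the enzyme that breaks serotonin down. Plcb1 is the phospholipase C that metabotropic glutamate receptors activate through Gq. Adcy1 is a calcium-stimulated adenylyl cyclase that makes cyclic AMP, and Prkar2b is a regulatory subunit of protein kinase A, which cyclic AMP activates. Btbd3 is a BTB-domain protein of cortical neurons that directs dendrites toward active axons. Lhx2 is a LIM-homeodomain transcription factor of the cortex, and the comparison asks how the P7 cortex differs when it is deleted in excitatory neurons.

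The probes below are shown because each result is the signal of 1 such oligonucleotide, and for Prkar2b and Plcb1 they show that separate stretches of the transcript were read. They are copied from the array files, 5′ to 3′, with the files' own mm9 coordinates. Each probe is 60 bases long. Capitals mark AATAAA or ATTAAA, the hexamers that can signal polyadenylation, searched on the probe's own strand over all of its bases. Plcb1 probes 2 and 3 are printed whole. For Maoa and Slc6a4, the 30 bases printed are a stretch that holds the hexamer, which for Slc6a4 is the last 30. For the other probes the first 30 bases are printed.
Btbd3, chr2:138113019-138113078, plus strand: tttatgaaggaaaatataaatatgaagtac
Adcy1, chr11:7077699-7077755, plus strand: gcactacggaattgcatgccttgaaattcc
Prkar2b probe 1, chr12:32643366-32643425, minus strand: cggctatgaatgccagctctgttctgttca
Prkar2b probe 2, chr12:32644030-32644089, minus strand: tctgtctatattgcatatcattcgacctta
Prkar2b probe 3, chr12:32644692-32644751, minus strand: cttgtgtgttagccttggcctattggtaaa
Plcb1 probe 1, chr2:135300906-135300965, plus strand: gtggcatgatgtttcttccacttgtaattt
Plcb1 probe 2, chr2:135190506-135190565, plus strand: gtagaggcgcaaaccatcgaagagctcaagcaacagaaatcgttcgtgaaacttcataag
Plcb1 probe 3, chr2:135213554-135213613, plus strand: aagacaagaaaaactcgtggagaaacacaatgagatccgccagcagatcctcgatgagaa
Maoa, chrX:16264785-16264844, plus strand: gttccacgtaaaAATAAAgttggccacaga
Slc6a4, chr11:76845777-76845836, plus strand: cctctaatttttcttacATTAAAcagattc
One of the hexamers is in 2 of the 10 probes, those of Maoa and Slc6a4, and in 13.7% of all probes. The Btbd3 probe has a G+C content of 23.3%, and Plcb1 probes 2 and 3 have 45.0%. The Adcy1 coordinates span 57 bases for a probe of 60. The 3 Prkar2b probes start within 1326 bases of each other, and the 3 Plcb1 probes within 110.4 kb. Which exon or untranslated region each probe lies in was not assigned here.

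All 6 arrays lay on 1 slide and were read in 1 scan. The share of spots well above background was 90.2%, 91.1% and 90.3% in control 1, 2 and 3. It was lower on every cKO array, at 89.7%, 86.7% and 89.2% in cKO 1, 2 and 3. What this does to dim probes was not tested. Saturation was flagged at 0 spots. The Lhx2 probe, which should check the labels, read higher on the arrays labelled cKO than on the control arrays. It gave 3.62, 3.63 and 3.55 in control 1, 2 and 3, and 4.55, 4.68 and 4.89 in cKO 1, 2 and 3 (log2 signal, defined below). Neurod6, the gene that carries Nex-Cre, gave 2.27, 2.13 and 2.35 in control 1, 2 and 3, and 2.85, 2.50 and 2.52 in cKO 1, 2 and 3, a difference of 0.37 (SE 0.13; adjusted p 0.614 in the limma fit) with no overlap. The labels do not say which part of Lhx2 is deleted, so the Lhx2 probe does not check the deletion, and the directions given here depend on the labels being right. Y-linked transcripts gave a signal in control 1 and control 3 alone, so Y-linked signal was unequal between the groups. Xist, a transcript of the inactive X chromosome of females, gave -8.33, 0.83 and -8.02 in control 1, 2 and 3. It gave 0.72, 0.94 and 1.13 in cKO 1, 2 and 3. Its other probe was also lowest in control 1 and control 3. Control 1 and control 3 thus read as male and the other arrays as female, so sex was unequal between the groups. Control 1, 2 and 3 and cKO 1 lay in slide rows 1, 2, 3 and 4 of the first column, and cKO 2 and cKO 3 in rows 1 and 2 of the second column. Comparisons within a row therefore set 1 array against 1, control 1 against cKO 2 and control 2 against cKO 3, across the columns.

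None of the 10 probes passed the test. Values are log2 processed signal minus the array's 75th percentile, so 1 unit is a doubling, and a difference is the mean of the 3 cKO arrays minus the mean of the 3 control arrays. The test was limma's moderated test over all 50029 probes well above background on at least 3 of 6 arrays, with Benjamini-Hochberg adjustment and a threshold of 0.05. All 10 probes were well above background on 6 of 6 arrays. The count of members called was 0 of 10, against 0.002% of all probes tested, which is 1 probe. At an unadjusted p under 0.05 it was 1 of 10, the Btbd3 probe, against 6.78% of all probes. The groups did not overlap for 2 of the 10 probes. Btbd3 was lower on every cKO array than on any control array, as were 5.89% of all probes, and Maoa was higher on every cKO array, as were 6.66%. Differences lay below 0 for 7 probes, of which 3 read Plcb1, and above 0 for 3, from -0.45 to 0.17. The median difference of all tested probes was 0.02, and with 1 value per gene 44.3% of all genes lay below 0. Each probe's 95% interval, which is not adjusted for the number of probes, lay within 1 log2 unit of 0.

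**Figure D1:**
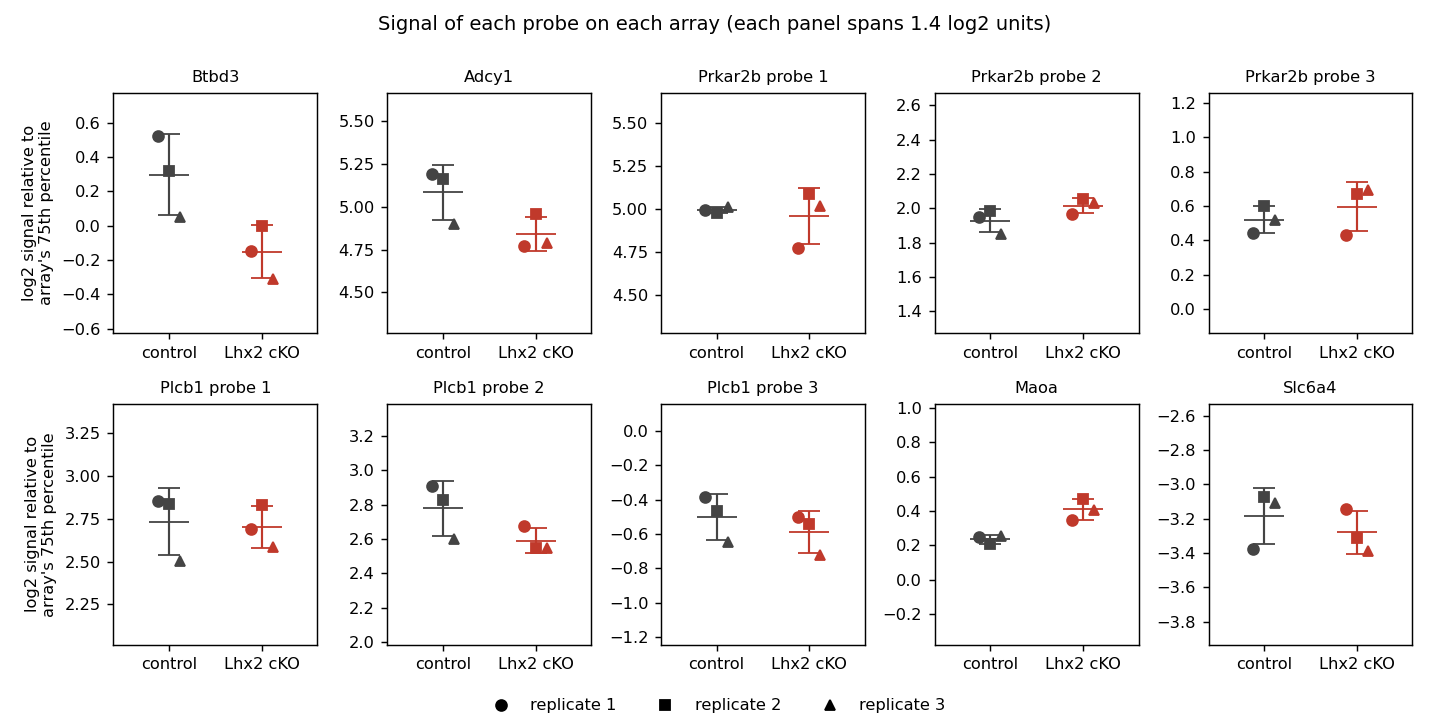
Log2 signal above or below the array's 75th percentile (vertical axis) for each of the 10 probes in control (grey) and Lhx2 cKO (red) samples; points are arrays, with the replicate number as the symbol, the horizontal bar is the group mean and the error bars are 1 SD (n = 3). The groups are apart for Btbd3, where all cKO arrays lie at or below 0.00 and all control arrays at or above 0.05, and for Maoa, where the cKO arrays lie between 0.35 and 0.47 and the control arrays between 0.20 and 0.25.

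Btbd3 gave 0.52, 0.32 and 0.05 in control 1, 2 and 3, and -0.15, 0.00 and -0.31 in cKO 1, 2 and 3. The means were 0.30 ± 0.24 in control and -0.15 ± 0.15 in cKO (SD, n = 3 each). The difference of -0.45 (SE 0.15; 95% interval -0.81 to -0.09) is a signal 26.8% lower on the arrays labelled cKO. The unadjusted p of the limma fit was 0.0209 and the adjusted p was 0.583. Control 3 and cKO 2, the nearest arrays of the 2 groups, were 0.05 apart, while the control arrays spanned 0.47. Within slide row 1 the difference was -0.52, and within row 2 it was -0.63. Leaving out each array in turn gave differences from -0.57 to -0.34, with unadjusted p from 0.00653 to 0.0729 in the limma fit. With a term for Y-linked signal the difference was -0.47, with an unadjusted p of 0.0828 in the limma fit. Btbd3 has a single probe on the array, so no second probe reads it.

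The cyclic AMP branch gave a lower value for Adcy1 that did not pass, and 3 Prkar2b probes near 0. Adcy1, the cyclase, gave 5.19, 5.16 and 4.90 in control 1, 2 and 3, and 4.77, 4.96 and 4.79 in cKO 1, 2 and 3. The groups overlapped, because control 3 was below cKO 2. The difference was -0.24 (SE 0.12; 95% interval -0.52 to 0.04), which is 15.5% lower, with an unadjusted p of 0.0800 and an adjusted p of 0.812 in the limma fit. It was -0.23 within slide row 1 and -0.37 within row 2. Leaving out each array in turn gave -0.33 (without control 3) to -0.19 (without control 1), with unadjusted p from 0.0219 to 0.222 and adjusted p of 0.526 or more in the limma fit.

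Prkar2b, the kinase regulatory subunit, was read by 3 probes on the same transcript. Probe 1 gave 4.99, 4.98 and 5.01 in control 1, 2 and 3, and 4.78, 5.09 and 5.02 in cKO 1, 2 and 3. Probe 2 gave 1.95, 1.98 and 1.85 in control, and 1.97, 2.05 and 2.03 in cKO, in the same order. Probe 3 gave 0.44, 0.60 and 0.52 in control, and 0.43, 0.67 and 0.69 in cKO. The groups overlapped for each probe, and cKO 1 was the lowest array for probes 1 and 3. The differences were -0.04 (95% interval -0.30 to 0.23), 0.09 (-0.13 to 0.30) and 0.08 (-0.19 to 0.34) for probes 1, 2 and 3. Their adjusted p in the limma fit was 0.996 or more. The sign of probe 1 turned to a difference of 0.06 without cKO 1, so the 3 probes do not give Prkar2b a direction. Leaving out 1 array gave 0.05 (without control 3) to 0.12 (without control 2) at probe 2, and 0.03 (without cKO 3) to 0.16 (without cKO 1) at probe 3.

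Plcb1, the phospholipase C of the glutamate branch, gave differences below 0 at all 3 probes, and none passed. Probe 2, which lists a set of GenBank accessions rather than a RefSeq transcript, gave 2.91, 2.83 and 2.60 in control 1, 2 and 3, and 2.68, 2.55 and 2.55 in cKO 1, 2 and 3. Only cKO 1 reached into the control range there. The difference at probe 2 was -0.19 (SE 0.11; 95% interval -0.46 to 0.08), with an unadjusted p of 0.144 and an adjusted p of 0.901 in the limma fit. Probe 1 gave 2.85, 2.84 and 2.51 in control and 2.69, 2.83 and 2.58 in cKO. Probe 3 gave -0.38, -0.46 and -0.65 in control and -0.50, -0.54 and -0.72 in cKO. Control 3 was the lowest control array at each Plcb1 probe. The differences were -0.03 (95% interval -0.34 to 0.29) at probe 1 and -0.09 (-0.36 to 0.18) at probe 3. Leaving out 1 array moved the difference at probe 3 from -0.16 (without control 3) to -0.02 (without cKO 3), and at probe 2 from -0.28 (without control 3) to -0.12 (without control 1). The sign at probe 1 turned without cKO 3 (0.03), without control 1 (0.03) and without control 2 (0.02).

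Control 3 was also the lowest control array for Btbd3, Adcy1 and Prkar2b probe 2, and so for 6 of the 10 probes in all. Over 50015 probes it was the lowest control array for 30.2%.

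Of the serotonin genes, Maoa was higher and Slc6a4 was near 0, and neither passed. Maoa gave 0.24, 0.20 and 0.25 in control 1, 2 and 3, and 0.35, 0.47 and 0.41 in cKO 1, 2 and 3. The control arrays were within 0.05 of each other, and the nearest cKO array was 0.10 above them. The means were 0.23 ± 0.03 and 0.41 ± 0.06 (SD, n = 3 each). The difference of 0.17 (SE 0.09; 95% interval -0.04 to 0.38) is a signal 12.8% higher on the arrays labelled cKO, with an unadjusted p of 0.0902 and an adjusted p of 0.836 in the limma fit. It was 0.23 within slide row 1 and 0.20 within row 2. Maoa is X-linked. With a term for Y-linked signal the difference was 0.20, with an unadjusted p of 0.209 in the limma fit. Without the 2 arrays that have Y-linked signal it was also 0.20, with control 2 as the only control array, so the 2 values are not separate checks. Maob, the other monoamine oxidase, differed by 0.00 (95% interval -0.22 to 0.22), and was named after its value was seen.

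Slc6a4, the transporter, gave -3.37, -3.07 and -3.11 in control 1, 2 and 3, and -3.14, -3.31 and -3.39 in cKO 1, 2 and 3. The groups overlapped, with the lowest and the highest control array on either side of cKO 1 and cKO 2. The probe was dim, with processed intensities from 84.1 to 116, yet well above background on every array. The difference was -0.09 (SE 0.12; 95% interval -0.39 to 0.20), with an adjusted p of 0.999 in the limma fit. It was 0.06 within slide row 1 and -0.31 within row 2, so the sign was not the same in both rows. Leaving out 1 array moved it from -0.19 (without control 1) to -0.04 (without control 2 or cKO 3). Without the arrays that have Y-linked signal, which leaves control 2 as the only control array, the difference was -0.21.

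**Figure D2:**
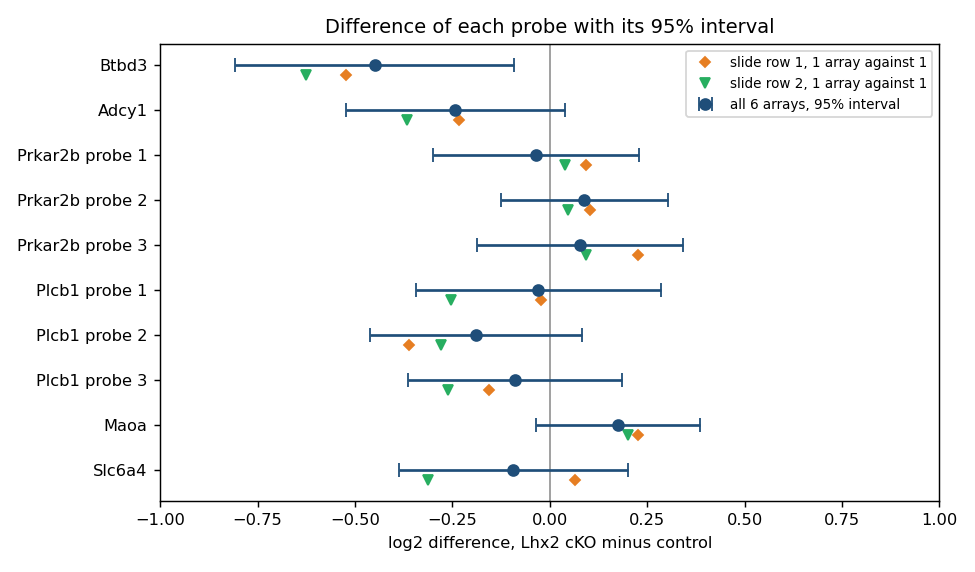
Log2 difference, Lhx2 cKO minus control (horizontal axis), of each probe; circles with bars are the limma estimates over 6 arrays with 95% intervals, and diamonds and triangles are the single differences within slide rows 1 and 2. The interval of Btbd3, from -0.81 to -0.09, is the only one of the 10 that does not hold 0.

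Slc6a4 is transcribed in thalamic and raphe neurons, whose cell bodies lie outside the cortex. In RNA of whole tissue, fewer cells of a type and less RNA per cell cannot be told apart. Signals are given here as sums over a marker list, each gene relative to the array's 75th percentile as 1. Over all 32695 genes tested, 44.3% of differences lay below 0. An unadjusted p under 0.05 in the limma fit was found for 7.49% of them, 1021 genes higher and 1429 lower. Of 8 thalamic markers, 7 were tested and all 7 differed in the negative direction, by -0.67 to -0.005. Of these, 2 had an unadjusted p under 0.05 in the limma fit. The thalamic sums were 6.03 to 6.34 in control and 5.01 to 5.26 in cKO. The brighter genes weigh most in such a sum. The median deviation of the thalamic markers from the control mean overlapped between the groups, at 0.04, -0.06 and -0.05 in control 1, 2 and 3 and 0.03, -0.34 and -0.26 in cKO 1, 2 and 3. Calb2, which had the lowest thalamic difference (-0.67), is also an interneuron marker, and Gbx2 was not tested. Of 8 raphe markers, which include Slc6a4 itself, 6 were tested, and En1 and Gata3 were not well above background on any array. Of the 6, 4 differences were below 0 and 2 above, and 2 markers were lower at an unadjusted p under 0.05 in the limma fit. The raphe sums were 2.12 to 2.47 in control and 1.62 to 2.22 in cKO, which overlap. The sums of 10 astrocyte markers were 144 to 174 in control and 101 to 122 in cKO, and all 10 differences were below 0. The sums of 10 microglial markers were 31.3 to 32.5 and 16.1 to 26.1, again with all 10 differences below 0. Sums of 10 interneuron markers did not overlap, from 77.5 to 81.6 in control and from 61.3 to 76.1 in cKO, with 9 of 10 differences below 0. Sums of 10 excitatory neuron markers overlapped, from 59.1 to 67.1 in control and from 61.3 to 71.3 in cKO, and 3 of these markers were higher and 2 lower at an unadjusted p under 0.05. Differences were below 0 for 8 of 10 oligodendrocyte lineage markers (sums 140 to 179 in control, 124 to 143 in cKO), 8 of 8 meningeal and choroid plexus markers (22.5 to 32.5, 11.9 to 32.9) and 7 of 10 endothelial and pericyte markers (20.1 to 26.1, 22.1 to 24.5). Striatal sums were 11.8 to 23.5 and 9.86 to 13.5, with the highest in control 3, and 7 of 9 striatal differences were below 0. At an unadjusted p under 0.05 in the limma fit, 9 of the 10 astrocyte and 9 of the 10 microglial markers were lower. So were 3 oligodendrocyte lineage, 2 interneuron, 2 striatal, 1 endothelial or pericyte and 0 meningeal or choroid plexus markers. None of any list passed after adjustment over all genes. The part of these cells in the values of Btbd3, Maoa and Slc6a4 was not tested.

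Other genes of the same pathways were counted with 1 value per gene, that of its brightest probe, adjusted over 32695 genes. Of these, 3 genes were called (0.00918%), and 2450 had an unadjusted p under 0.05 (7.49%), 1021 higher and 1429 lower. The median difference of all genes was 0.02. The lists were chosen with earlier results of these data known, so their counts are descriptions.

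In the cyclic AMP and protein kinase A list, 0 of 29 genes were called, 4 had an unadjusted p under 0.05 (3 higher, 1 lower), and the median difference was 0.04. Adcy8, another calcium-stimulated adenylyl cyclase, had the smallest p. It gave -0.60, -0.60 and -0.87 in control 1, 2 and 3, and -1.54, -1.53 and -1.66 in cKO 1, 2 and 3. No cKO array reached the control range. The difference was -0.89 (SE 0.11), a fold of 0.540, with an adjusted p of 0.0803 in the limma fit. Adcy8 passed under 4 other settings: normexp background correction with either scaling, an intensity trend and array weights. Those settings called 75 to 136 genes in all, against 3 as reported. It did not pass under the rest. The smallest adjusted p of the list in the limma fit was 0.312 with a replicate block and 0.603 with a term for Y-linked signal. Adcy7, another cyclase, differed by 0.37 and Pkia, an inhibitor of protein kinase A, by 0.42, with adjusted p of 0.30 and 0.324.

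In the list from glutamate receptors to phospholipase C, 0 of 23 genes were called, 1 was higher and 1 lower at an unadjusted p under 0.05, and the median was 0.05. Both were receptors for inositol trisphosphate, the product of phospholipase C that releases stored calcium. Itpr2 gave 2.22, 2.30 and 2.07 in control 1, 2 and 3, and 1.69, 1.68 and 1.69 in cKO 1, 2 and 3, a difference of -0.51 (SE 0.09; adjusted p 0.213 in the limma fit). Itpr1 gave 2.21, 2.24 and 1.84 in control, and 2.52, 2.77 and 2.78 in cKO, a difference of 0.59 (SE 0.14; adjusted p 0.316). The groups of neither gene overlapped, and the differences had opposite signs. Itpr2 passed only under normexp with quantile normalization and under array weights. Grm5, the glutamate receptor upstream of Plcb1, differed by 0.28 (adjusted p 0.774), with 0.31 and 0.14 at its other probes.

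In the list of serotonin handling and receptors, 0 of 25 genes were called, 1 was higher and 3 lower at an unadjusted p under 0.05, and the median was 0.05. Htr2b, a Gq-coupled serotonin receptor, differed by -0.84 (SE 0.14; adjusted p 0.17 in the limma fit). Slc22a3, a low-affinity monoamine transporter, differed by 0.71 (SE 0.17; adjusted p 0.316). Both probes were dim, with log2 signals from -4.25 to -3.10 for Htr2b and from -4.21 to -3.02 for Slc22a3. Ddc, the enzyme that makes serotonin and dopamine from their precursors, differed by -0.69 (SE 0.17; adjusted p 0.327), with -0.31 at its other probe. Slc18a2, the vesicular monoamine transporter, was the third gene below 0 and differed by -0.52, with -0.66 at its other probe, and was named after its value was seen.

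In the list of other genes linked to barrels, 0 of 22 genes were called, 4 were higher and 2 lower at an unadjusted p under 0.05, and the median was 0.11. Lmo4, a LIM-only transcriptional cofactor, differed by -0.33 (SE 0.10; adjusted p 0.422 in the limma fit), with -0.27 at its other probe. Gap43, a growth cone protein, differed by 0.30 (SE 0.10; adjusted p 0.479). Nr2f1, a nuclear receptor that patterns cortical areas, differed by 0.34 (SE 0.12; adjusted p 0.562), with 0.40 at its other probe. Among 10 BTB-domain relatives and partners of Btbd3, 0 were called, 2 were higher and 2 lower at an unadjusted p under 0.05, and the median was 0.02. Btbd17 differed by -0.36, Btbd8 by -0.41 and Btbd11 by 0.33, with adjusted p of 0.298, 0.496 and 0.617 in the limma fit, and the other Btbd8 probes differed by -0.35 and -0.02.

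**Figure D3:**
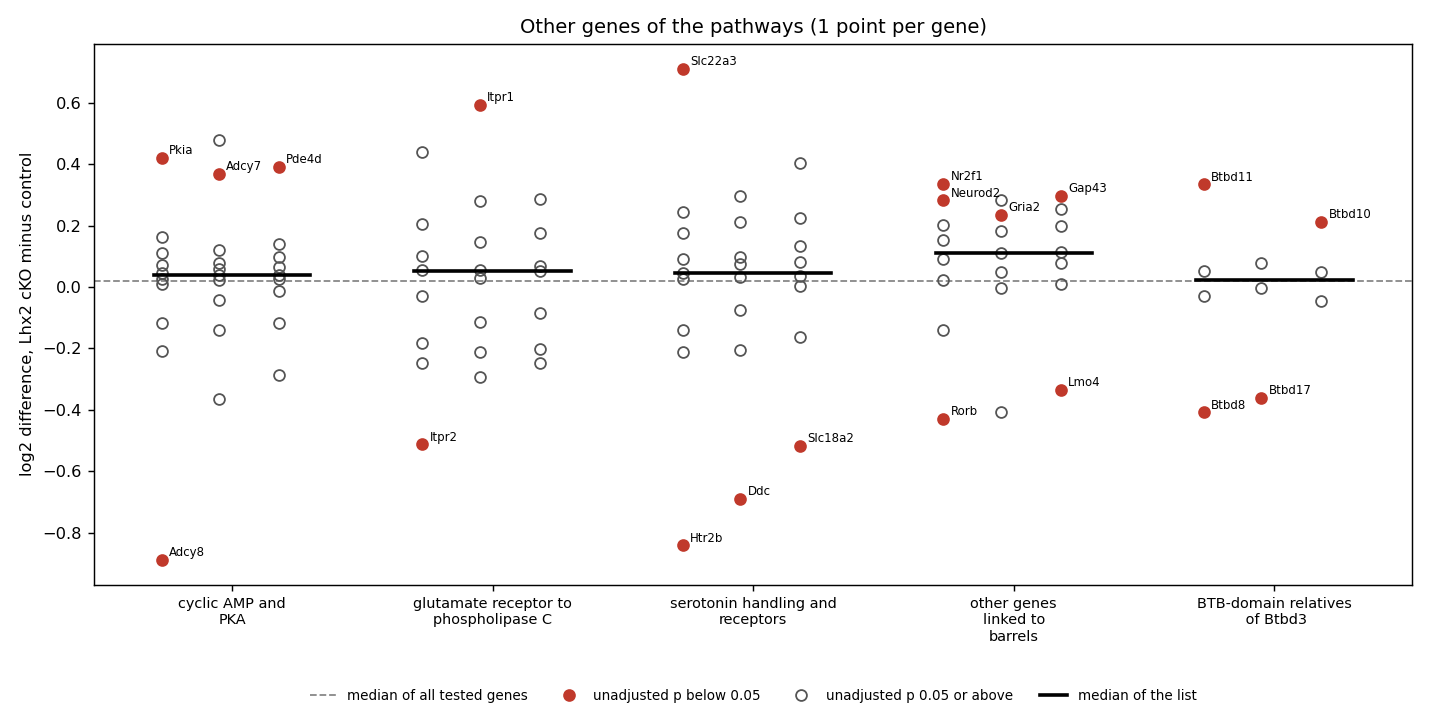
Log2 difference, Lhx2 cKO minus control (vertical axis), for each tested gene of 5 pathway lists, 1 point per gene; filled points have an unadjusted p under 0.05 and are labelled, black bars are list medians and the dashed line is the median of all tested genes. Adcy8 (-0.89), Htr2b (-0.84) and Slc22a3 (0.71) lie farthest from 0, and the list medians lie between 0.02 and 0.11. The probes of Htr2b and Slc22a3 were dim.

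The genes whose signals across the 6 arrays were most like each member's brightest probe were taken from 18470 genes, by Pearson r over 6 arrays, as a description. For Btbd3 they were Tm7sf3 (r = 0.995) and Usp2 (0.995), for Adcy1 Tpst2 (0.999) and Sbds (0.998), and for Maoa Dpy19l3 (0.999) and Bcas2 (0.997). For Prkar2b they were Ddx46 (0.995) and Pantr1 (0.994), for Plcb1 Ccnh (0.996) and Slc25a4 (0.995), and for Slc6a4 Olfr391 (0.994) and Tas2r143 (0.993). All arrays share a slide and a scaling, and between 121 and 627 genes had an r above 0.9 with a member.

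**Figure D4:**
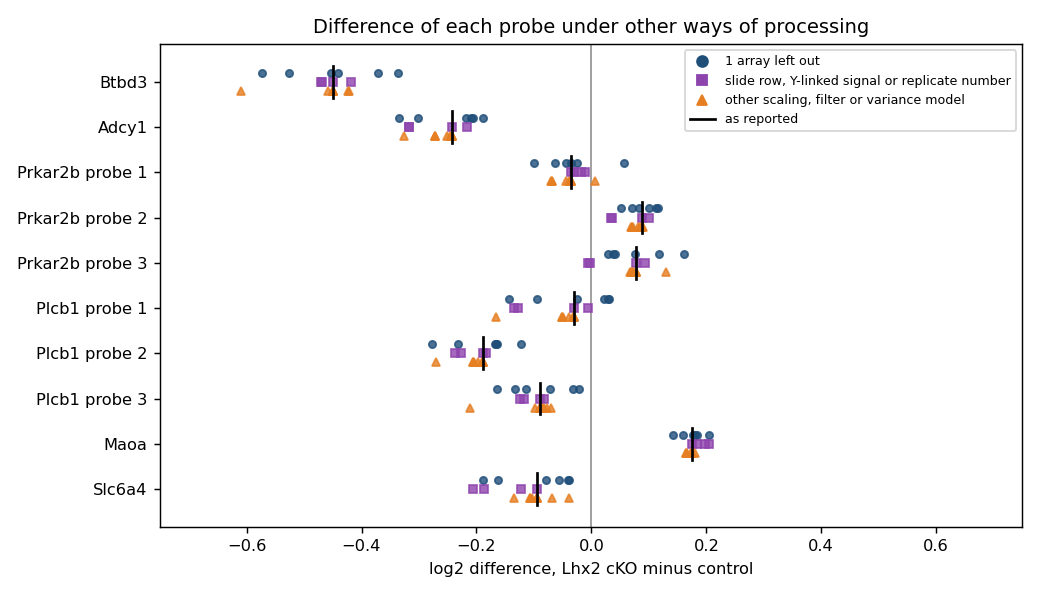
Log2 difference, Lhx2 cKO minus control (horizontal axis), of each probe as reported (black bar) and under the other settings, by kind (symbols). Btbd3 stays between -0.61 and -0.34 and Maoa between 0.14 and 0.20, while Prkar2b probes 1 and 3 and Plcb1 probe 1 lie on both sides of 0.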

How the data were processed

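The deposited scanner files hold intensity values of 1-colour (Cy3) Agilent arrays, which per the file headers come from Feature Extraction 10.5.1.1, where the processed intensity is background-subtracted and not normalized between arrays. The authors' series matrix holds log2 values of the same probes, with processing steps not given in the sources used here. They lie within 0.00235 of quantile-normalized log2 signals centred per probe for 95% of values (column medians -0.0064 to 0.00645), and served as an alternative. From the scanner files, log2 processed signal minus each array's 75th percentile was taken, without control and outlier-flagged spots (112 to 198 an array), and spots of a probe were averaged. Probes well above background on at least 3 of 6 arrays were tested with limma 3.58.1 (R 4.3.3), two-sided, with Benjamini-Hochberg adjustment. Pathway genes took the brightest probe. Gene names were updated through a RefSeq table of GRCm38.p6 (28331 probes by accession, 417 by another accession, 2037 by symbol, 163 by synonym; 24733 kept the file's name). The named genes are the members, the 3 genes of each list with the smallest p and the 2 most like each member. Maob, Slc18a2, Neurod6, Xist and the markers named are outside this rule, and Maob, Slc18a2 and Xist were chosen after their values were seen. The members and lists were chosen with earlier results of these data known. The fit was tested on simulated data. Settings varied normalization, background correction, filter, variance model, covariates and arrays left out.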

Additional observations from a re-analysis of the deposited data

How the results depend on the processing

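No member probe passed under any of the 20 other settings fitted per probe. In these Btbd3, Adcy1, Plcb1 probes 2 and 3 and Slc6a4 stayed below 0, and Prkar2b probe 2 and Maoa stayed above 0. Btbd3 had an unadjusted p under 0.05 in the limma fit in 15 of them, Adcy1 in 7, Plcb1 probe 2 in 3 and Maoa in 2. Their smallest adjusted p was 0.116, 0.207, 0.265 and 0.330, each with array weights. The other probes had an unadjusted p under 0.05 in 0 settings. The sign turned for Prkar2b probe 1 with array weights (0.00593) and without cKO 1 (leave-one-out range -0.0992 to 0.0567). For Prkar2b probe 3 the sign turned with the Y-linked term (-0.00547). It also turned there without the arrays with Y-linked signal (-0.00325), which leaves control 2 as the only control array. It turned for Plcb1 probe 1 without cKO 3, control 1 or control 2 (leave-one-out range -0.143 to 0.0307). Prkar2b as 1 value per gene gave 0.0435 as the mean of its probes and 0.00357 with array weights.

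Over all probes, 1 was called as reported, against 11 with median centring, 94 with normexp, 85 with normexp and quantile normalization, 103 with an intensity trend, 131 with array weights, 0 without a filter, 0 with a slide row term, 2 with a Y-linked term and 0 without the arrays with Y-linked signal. Over all genes, 3 were called as reported, against 12 with quantile normalization, 24 with median centring, 89 with normexp, 75 with normexp and quantile normalization, 0 without a filter, 13 with a filter on all 6 arrays, 110 with a trend, 136 with weights, 0 with a row term, 1 with a Y-linked term and 12 with the authors' matrix. Leaving out each array gave 0 to 10 probes and 0 to 4 genes. The cyclic AMP list had 1 call (Adcy8) under both normexp settings, the trend and weights, and the phospholipase C list 1 (Itpr2) under normexp with quantile normalization and under weights. The cause of these changes was not tested.

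The replicate number as a block gave 0 called probes and 0 called genes. Deviations of same-numbered samples correlated at -0.17, 0.07 and 0.16 across probes, and those of differently numbered samples at -0.25 to 0.22. With 3 arrays a group, these correlations cannot decide whether the numbers pair the samples. With 3 arrays a group, the intervals of the members reach between -0.81 and 0.38.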
